A study of Mus musculus with 16 samples.

Results

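The 9 genes described here, C1qa, C1qb, C1qc, Csf1r, Cx3cr1, P2ry12, Tmem119, Aif1 and Trem2, are commonly used markers of microglia, the resident macrophages of the brain. Their rows were picked out by gene symbol, and the list was drawn up with earlier results of these data known. All 9 were among the 17986 genes listed for every library, and all 9 were among the 11892 genes that were tested, the filter being 1 FPKM reached in 2 or more libraries. FPKM is a fragment count scaled to transcript length and library depth. The RNA came from CA1, a subfield of the hippocampus, of male C57Bl6 mice aged 3 to 6 months. The mice were wild type or N3 -/-, that is, deficient for the DNA glycosylase gene Neil3 on the same background. CA1 was cut by laser from sections of 8 µm, and the brains had been frozen without perfusion. Home cage mice (2 libraries for each genotype label) had no intervention. Spatial exploration mice (3 libraries for each) had 1 week of open field training (sides of 50 cm, 20 min daily), with tissue taken 20 min after the final session.

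Neil3 went against the genotype labels. Under the wild type label its values were 0 and 0 FPKM in the home cage and 0, 0 and 0.05 FPKM with exploration. Under the N3 -/- label they were 13.77 and 15.22 FPKM in the home cage and 15.13, 11.85 and 8.35 FPKM with exploration. The groups are therefore called WT-labelled and KO-labelled, and every direction below follows the labels as given. The deposited values stand in separate blocks for the home cage and for exploration, so environment and block cannot be told apart in any difference between environments. The sum of FPKM was 405718 to 466701 per library, and the estimated depth was 18800000 to 20100000 fragments. The design text counts animals, which makes each library 1 mouse. Libraries are named by label, environment (HC for home cage, EX for exploration) and a number that only names them, such as WT-HC1.

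Microglia enter the brain early in development and renew themselves there. Their survival depends on the receptor Csf1r, which binds the ligands Csf1 and Il34. Cx3cr1 receives the neuronal ligand Cx3cl1, P2ry12 senses extracellular nucleotides and guides process movement, and Trem2 signals through the adaptor Tyrobp on binding lipids and lipoproteins. C1qa, C1qb and C1qc encode the chains of C1q, the recognition molecule of the classical complement pathway, which tags material that microglia engulf. Tmem119 is a membrane protein used to tell microglia from other macrophages, and Aif1 (Iba1) is a calcium- and actin-binding protein.

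The C1q genes lie side by side on the minus strand of chromosome 4 (GRCm38, GENCODE genes): C1qb at chr4:136880129-136886187, C1qc at chr4:136889804-136893065 and C1qa at chr4:136895917-136898803. P2ry12 lies at chr3:59216272-59262871 on the minus strand and Trem2 at chr17:48346401-48354147 on the plus strand. The promoter table of RefSeq (GRCm38.p6) had an entry for 6 of the 9 genes. The promoters were read for a form of the PU.1 site, the letters GAGGAA on either strand, called the core here. Other forms of the site were not searched. PU.1, encoded by Spi1, is the lineage factor of macrophages. In the 250 bases before the start, 4 of the 6 held the core (C1qb, C1qc, Aif1 and Trem2), as did 23.3% of 32851 promoters. For C1qc, Cx3cr1 and Aif1 the 150 bases nearest the start overlap a GENCODE exon of the same gene and are not shown. The 150 bases before the start are shown for C1qb and Trem2, where the core lies close to the start, and for P2ry12, whose difference between groups was among the largest and whose window does not hold those letters. Capitals mark the core, which reads on the opposite strand in Trem2.
C1qb, chr4:136886201-136886350, minus strand: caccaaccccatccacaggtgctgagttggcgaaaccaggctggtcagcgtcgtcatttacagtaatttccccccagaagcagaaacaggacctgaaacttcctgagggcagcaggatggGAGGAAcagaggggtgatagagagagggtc
Trem2, chr17:48346251-48346400, plus strand: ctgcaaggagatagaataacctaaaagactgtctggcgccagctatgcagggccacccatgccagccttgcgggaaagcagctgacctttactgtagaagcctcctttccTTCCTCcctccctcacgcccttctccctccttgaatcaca
P2ry12, chr3:59262986-59263135, minus strand: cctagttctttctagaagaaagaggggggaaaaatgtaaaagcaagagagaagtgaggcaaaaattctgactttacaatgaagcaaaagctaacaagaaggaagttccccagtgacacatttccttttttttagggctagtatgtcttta
A match of letters is a description of the sequence and was not tested as a binding site.

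All 9 genes were detected at 1 FPKM or more in all 10 libraries, at levels per length that fell into a high and a low set. Over the 10 libraries C1qa had a mean of 17.0 ± 2.58 FPKM (SD, n = 10), C1qb 15.5 ± 2.31 and C1qc 14.2 ± 2.74. C1qa lay above C1qb in 9 of 10 libraries and C1qb above C1qc in 7, so that neighbours in this order overlapped. P2ry12 and Csf1r followed at the same mean of 5.12 FPKM, with P2ry12 the higher of the pair in 4 libraries. Every library had C1qc above P2ry12, by a mean ratio of 2.81. Trem2 (3.33 ± 1.11 FPKM), Cx3cr1 (3.06 ± 0.488) and Tmem119 (2.97 ± 0.745) could not be ranked, since Trem2 exceeded Cx3cr1 in 4 libraries and Cx3cr1 exceeded Tmem119 in 5. Aif1 was the lowest at 2.04 ± 0.585 FPKM and lay below Tmem119 in all 10 libraries. C1qa stood at the 62.5th percentile of mean level among tested genes, and Aif1 at the 13.9th. Aif1 rested on an estimated 17 to 45 fragments per library, a counting error of 24.4% to 14.9%, and Trem2 on 37 to 104, whereas Csf1r rested on 288 to 445.

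**Figure D1:**
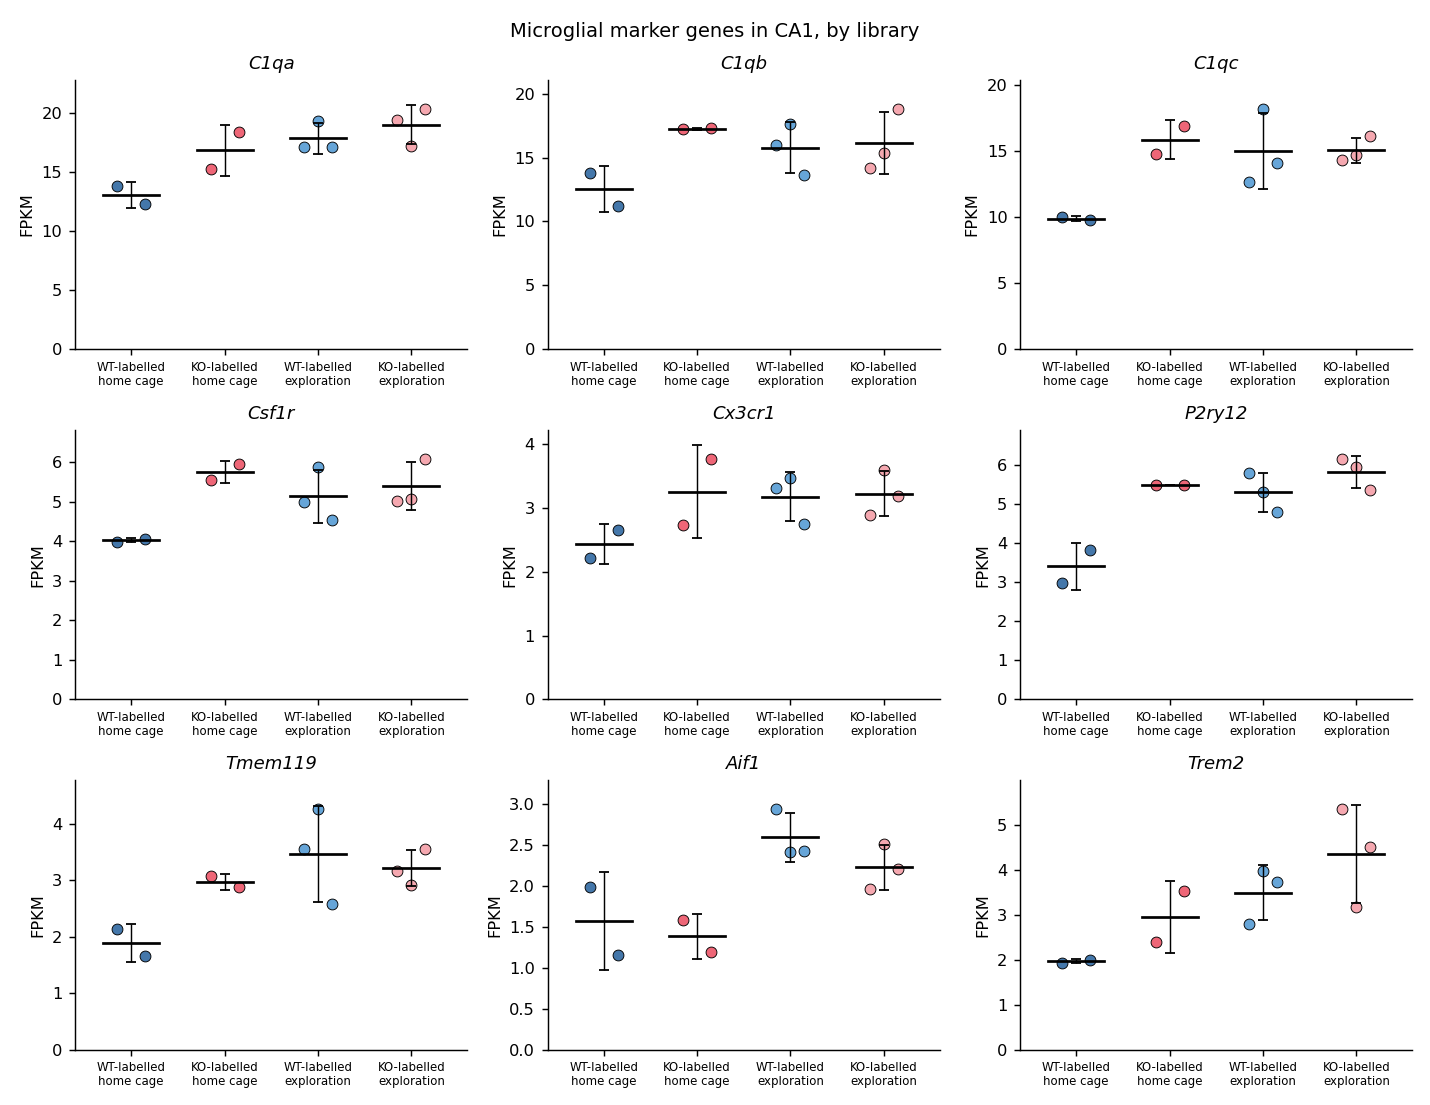
FPKM of the 9 microglial marker genes (y axes, each from 0) in each of 10 libraries, by group (x axes); points are libraries, lines are group means and bars are SD. In 7 of the 9 panels both WT-labelled home cage libraries lie below all other 8 libraries, C1qb and Aif1 being the exceptions.

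In the home cage the microglial genes were higher in the KO-labelled than in the WT-labelled libraries, by 1.29- to 1.61-fold in the group means of 8 genes. Of the 9 genes, 2 passed the test across all genes (limma, Benjamini-Hochberg adjusted), C1qc and P2ry12, both higher. Across all tested genes 3.57% were called in this comparison and 2.12% were called higher. The groups did not overlap for 8 of the 9 genes, higher in the KO-labelled libraries, against 21.0% of all tested genes. The members' median log2 difference was 0.425, and that of all tested genes was -0.018. In bulk tissue, fewer cells of a type and less RNA per cell cannot be told apart.

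Among the C1q chains, C1qc measured 10.02 and 9.8 FPKM in the WT-labelled home cage libraries and 14.83 and 16.95 FPKM in the KO-labelled ones. Its groups were well separated, and the log2 difference was 0.63 ± 0.14 (SE), with an adjusted p of 0.0345 by limma. C1qa was at 13.85 and 12.26 against 15.29 and 18.37 FPKM, and C1qb at 13.81 and 11.24 against 17.21 and 17.29 FPKM. Both had KO-labelled libraries above the WT-labelled ones without passing the test (limma adjusted p of 0.139 and 0.125). C1qc lost its call without WT-HC1, WT-HC2, KO-HC2 or KO-EX2 (limma adjusted p of 0.0572 to 0.198).

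Among the receptors, P2ry12 measured 2.98 and 3.84 FPKM in the WT-labelled home cage libraries, compared with 5.5 and 5.49 FPKM in the KO-labelled ones. The KO-labelled pair was nearly identical and stood above both WT-labelled values, a log2 difference of 0.57 ± 0.13 (SE) with a limma adjusted p of 0.0344. Csf1r, the growth factor receptor, was at 3.99 and 4.07 against 5.55 and 5.96 FPKM (log2 difference 0.43, limma adjusted p 0.0951). Cx3cr1, the fractalkine receptor, was at 2.21 and 2.66 against 2.74 and 3.77 FPKM, and Trem2 at 1.93 and 1.99 against 2.39 and 3.52 FPKM. For these last genes the lower KO-labelled library stood close to the WT-labelled pair, and the 95% interval of the log2 difference ran from -0.03 to 0.63 for Cx3cr1 and from -0.04 to 0.85 for Trem2. P2ry12 lost its call without WT-HC1, KO-HC1, KO-HC2, WT-EX1, WT-EX2 or KO-EX2 (limma adjusted p of 0.0541 to 0.261). C1qc and P2ry12 both lost their calls with no filter on low values (limma adjusted p 0.103 and 0.0891) and when libraries were scaled to other microglial genes (0.0638 and 0.112), and P2ry12 when the home cage groups were fitted alone (0.0872).

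Tmem119 was at 2.13 and 1.65 FPKM under the WT label and 3.07 and 2.87 FPKM under the KO label in the home cage libraries, a log2 difference of 0.46 ± 0.17 (SE) that did not pass (limma adjusted p 0.168). Aif1 went the other way in its mean. It was at 1.99 and 1.15 FPKM under the WT label and 1.58 and 1.19 FPKM under the KO label, so the groups overlapped (log2 difference -0.09, 95% interval -0.46 to 0.28).

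After spatial exploration none of the 9 microglial markers separated the genotype labels. Of the 9 genes, 0 were called by limma and 0 had an unadjusted p under 0.05, against 0.597% of all tested genes called. The groups overlapped for all 9 genes, while 24.9% of all tested genes had groups that did not overlap in either direction. C1qc was at 12.69, 18.24 and 14.1 FPKM under the WT label and 14.36, 14.69 and 16.15 FPKM under the KO label in the exploration libraries. These values interleave, and the 95% interval of the log2 difference was -0.23 to 0.27. P2ry12 was at 5.8, 5.32 and 4.8 against 6.17, 5.96 and 5.37 FPKM, with an interval of -0.11 to 0.34 and overlapping values. Trem2 had the largest difference of the 9, at 2.79, 3.96 and 3.72 against 5.35, 3.18 and 4.51 FPKM (log2 difference 0.24, 95% interval -0.12 to 0.60). Of its KO-labelled libraries 2 lay above all 3 WT-labelled ones, and the third lay between them.

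Averaged over both environments, 0 of the 9 genes were called by limma and 6 had an unadjusted p under 0.05, all higher in the KO-labelled libraries. Of all tested genes 2.13% were called and 20.2% had an unadjusted p under 0.05. P2ry12 came nearest (log2 difference 0.34 ± 0.08 SE, adjusted p 0.0525).

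**Figure D2:**
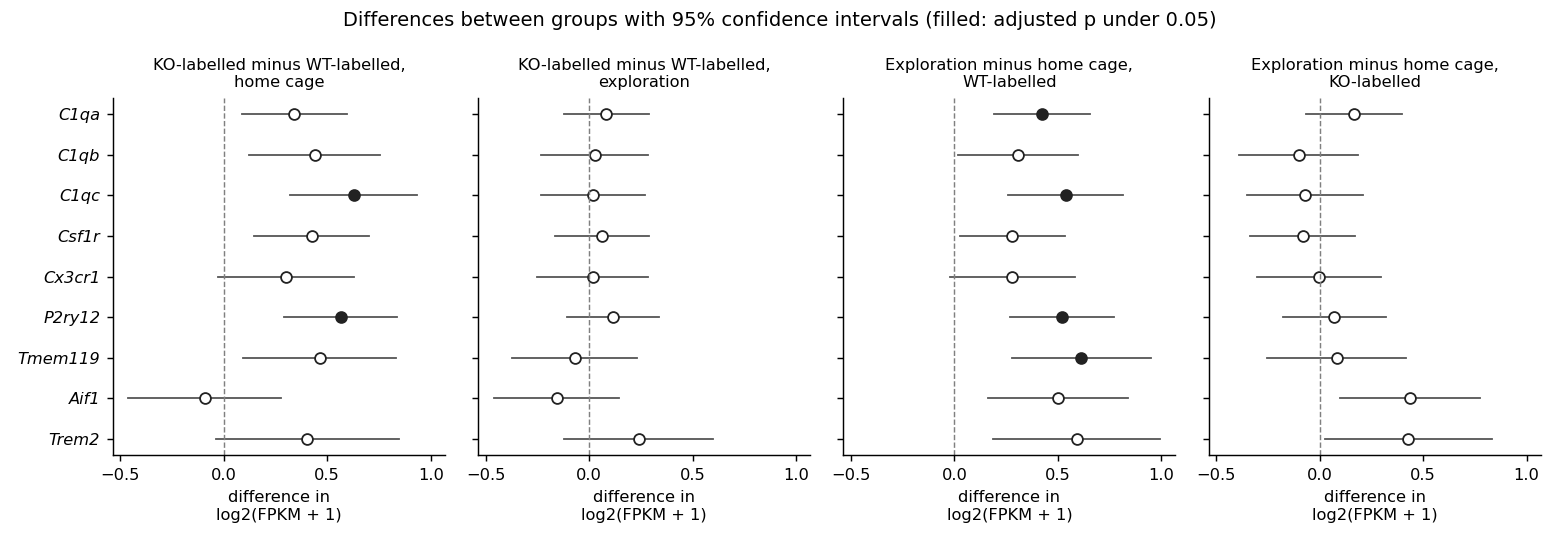
Differences in log2(FPKM + 1) (x axes) for the 9 genes (y axis) in 4 comparisons, with 95% confidence intervals; filled points passed the limma test at an adjusted p under 0.05. In the home cage 8 of 9 points lie to the right of 0, while after exploration every interval spans 0.

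Within the WT-labelled mice, the microglial genes were higher in the exploration than in the home cage libraries, for all 9 genes in the mean. Of the 9, 4 passed the limma test, all higher: C1qa, C1qc, P2ry12 and Tmem119. Across all tested genes 6.31% were called and 2.02% were called higher. The groups did not overlap for 8 of the 9 genes, the exploration libraries being higher, against 19.7% of all tested genes; C1qb was the exception. The members' median log2 difference was 0.50, beside -0.02 for all tested genes. This comparison shares the WT-labelled home cage libraries with the home cage comparison of the labels, so the results of both rest on the same low values.

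C1qa was at 17.13, 19.32 and 17.09 FPKM after exploration, against 13.85 and 12.26 FPKM in the home cage. All 3 exploration values exceeded both home cage values, a log2 difference of 0.42 ± 0.11 (SE) with a limma adjusted p of 0.0373. C1qb, with 16.02, 17.64 and 13.64 FPKM, reached down to the higher home cage value of 13.81 FPKM and did not pass (adjusted p 0.19). C1qc (log2 difference 0.54, limma adjusted p 0.0309) and P2ry12 (0.52, adjusted p 0.0229) had the exploration values given above. Both were higher in all 3 exploration libraries than in either home cage library.

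Tmem119, at 3.55, 4.26 and 2.58 FPKM after exploration, had the largest log2 difference of the 9 genes, 0.61 ± 0.15 (SE), with a limma adjusted p of 0.0378. Its lowest exploration value still lay above the home cage values of 2.13 and 1.65 FPKM. Aif1 was at 2.94, 2.41 and 2.43 FPKM after exploration, above its home cage values of 1.99 and 1.15 FPKM, and missed the threshold (adjusted p 0.0777). Trem2 also missed it (log2 difference 0.59, adjusted p 0.0796). Csf1r was at 4.99, 5.87 and 4.55 FPKM and Cx3cr1 at 3.31, 3.47 and 2.75 FPKM, each above its home cage pair, with log2 differences of 0.28 for both. All 4 calls were lost without WT-HC1, WT-HC2 or WT-EX2. C1qa and C1qc were also lost without WT-EX3, C1qa, P2ry12 and Tmem119 without WT-EX1, and Tmem119 without KO-EX2 (limma adjusted p of 0.0544 to 0.322 over these). The 4 calls were also lost with no filter (limma adjusted p of 0.0566 to 0.0958) and on scaling to other microglial genes (0.0528 to 0.187), and those of C1qa and C1qc on scaling to the same FPKM sum (0.0889 and 0.0623).

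Within the KO-labelled mice the same genes showed little difference between environments. Of the 9, 0 were called by limma and 2 had an unadjusted p under 0.05, Aif1 and Trem2, whereas 28.6% of all tested genes were called and 41.6% had an unadjusted p under 0.05. The members' median log2 difference was 0.07, beside -0.04 for all tested genes. Aif1 was at 1.96, 2.51 and 2.21 FPKM after exploration against 1.58 and 1.19 FPKM in the home cage. It was the 1 gene of the 9 whose groups did not overlap, against 52.1% of all tested genes without overlap in either direction, and its log2 difference was 0.44 ± 0.16 (SE, limma adjusted p 0.0528). C1qb, at 14.21, 15.33 and 18.83 FPKM after exploration, spread across its home cage values of 17.21 and 17.29 FPKM. Csf1r, at 5.03, 5.07 and 6.09 FPKM, did the same around 5.55 and 5.96 FPKM.

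Averaged over the labels, 5 of the 9 genes were higher after exploration by limma (C1qa, P2ry12, Tmem119, Aif1 and Trem2), beside 31.9% of all tested genes called and 12.6% called higher. Trem2 had a log2 difference of 0.51 ± 0.13 (SE, adjusted p 0.0132) and Aif1 0.47 ± 0.11 (adjusted p 0.00858). These were the members with the smallest gap between the labels in that difference (-0.16 for Trem2 and -0.06 for Aif1). Both kept the call under every alternative in which they were tested. C1qa lost it without WT-HC2, P2ry12 without WT-HC1 or KO-HC2, and Tmem119 without WT-HC2, KO-HC2, WT-EX1, WT-EX2 or KO-EX3. All 3 lost it on scaling to the same FPKM sum (limma adjusted p of 0.0731 to 0.0768) or to other microglial genes (0.101 to 0.161), and Tmem119 with no filter (0.0731).

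The difference between the labels in their exploration difference was tested directly. All 9 genes had a negative value, meaning a smaller exploration difference under the KO label, with a median of -0.36 beside 0.004 for all tested genes. Of the 9, 0 were called by limma, 5 had an unadjusted p under 0.05 (C1qb, C1qc, Csf1r, P2ry12 and Tmem119), while 0.875% of all tested genes were called and 16.1% had an unadjusted p under 0.05. C1qc had the largest value, -0.61 ± 0.18 (SE, adjusted p 0.114). The call for C1qc or P2ry12 in the home cage and its absence after exploration is therefore not shown to be a difference between environments.

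Read library by library, the low values belonged to the WT-labelled home cage group. WT-HC1 was the lowest of the 10 for 4 genes and WT-HC2 for the other 5, and in both of them all 9 genes lay below their own median. For 7 of the 9 genes both of these libraries lay below all other 8, against 4.84% of all tested genes. The summed FPKM of the 9 genes was 52.9 and 48.7 in these libraries and 65.7 to 80.5 in the other 8. Among the other 8, KO-EX3 was the highest for 3 genes, WT-EX2 and KO-EX1 for 2 each, and WT-EX3 lay below the median for 7 genes.

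The proportions of the C1q chains were read within each library. C1qb stood at 0.917 ± 0.106 (SD, n = 10) of the C1qa level and C1qc at 0.831 ± 0.0893. The ratio of C1qc to C1qa was 0.761 ± 0.0537 in the WT-labelled home cage group (n = 2) and 0.946 ± 0.0334 in the KO-labelled one (n = 2), with 0.837 ± 0.102 and 0.796 ± 0.0582 after exploration (n = 3 each). In group means the home cage groups mark both ends of this range. Single libraries ran from 0.723 in WT-HC1 to 0.97 in KO-HC1, and exploration libraries overlapped both home cage groups. The ratio was not tested. Trem2 varied most relative to its mean within groups, with a coefficient of variation of 23.9%, against 8.78% for P2ry12 and 9.17% for C1qa.

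Members also differed in how closely they followed each other. As deviations from the mean of their environment over 10 libraries that share depth and library between genes, Csf1r had a Pearson r of 0.96 with the mean of the other 8, C1qc 0.916 and C1qa 0.896. P2ry12 (0.664), Cx3cr1 (0.648) and Trem2 (0.5) followed less closely, and Aif1 had an r of -0.335. Outside the 9, the tested genes most like their mean profile were Mpp5 (r = 0.961), Cspg5 (0.958), Timp4 (0.951), Plekhb2 (0.95) and Xylt1 (0.948), and among the least alike were Tle1 (-0.988) and Lpl (-0.975). None of these genes is on the list of companion microglial genes. Of the 26 companion genes tested, 9 had an r over 0.7, which is 34.6% against 6.5% of all tested genes outside the 9.

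The companion list held 40 other genes of microglia, of which 26 passed the filter, and 13 of the 40 were at or below 1 FPKM in every library. In the home cage 25 of the 26 had a positive log2 difference between the labels, and 2 were called, both higher in the KO-labelled libraries (median 0.24, beside -0.02 for all tested genes). Cd68, a lysosomal membrane protein of phagocytes, was at 2.16 and 2.23 FPKM against 3.73 and 3.94 FPKM (log2 difference 0.60, limma adjusted p 0.0317). Laptm5, another lysosomal membrane protein, was at 3.86 and 4.48 against 6.42 and 7.72 FPKM (0.64, adjusted p 0.0377). After exploration Cd68 was at 2.33, 2.9 and 2.19 FPKM under the WT label and 2.13, 1.8 and 2.08 FPKM under the KO label. Cd68 therefore differed from the 9 markers in its pattern: its KO-labelled home cage pair was high, and all other 8 libraries lay lower. The difference between the labels in its exploration difference passed the test (log2 -0.80 ± 0.17 SE, limma adjusted p 0.0496), but this call was lost in 12 of 17 alternatives, among them the removal of any 1 of 8 libraries (all but KO-HC1 and KO-EX1; limma adjusted p of up to 0.227). Cd68 kept its home cage call in 9 of 17 alternatives and Laptm5 in 7 of 18, the losses including the removal of WT-HC1, WT-HC2 or KO-HC2 for both. Between the labels after exploration 0 of the 26 companion genes were called by limma. A positive log2 difference was found for 19 of them, against 46.5% of all tested genes, with a median of 0.099 beside -0.015. Of the 26, 4 had an unadjusted p under 0.05 by limma, all higher under the KO label, against 17.2% of all tested genes. In the WT-labelled exploration comparison 1 companion gene was called, Tyrobp.

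Among the ligands and signalling partners of the 9 genes, 22 of 30 were tested, and 4 were called in the home cage comparison of the labels, all higher in the KO-labelled libraries: Csf1, Il34, Tgfb2 and Apoe. The 22 had a median log2 difference of 0.13, with 14 positive. Il34, the neuronal ligand of Csf1r, was at 19.92 and 21.09 FPKM under the WT label and 31.79 and 34.47 FPKM under the KO label in the home cage libraries (log2 difference 0.67, limma adjusted p 0.0217). After exploration it was at 22.46, 23.37 and 20.37 FPKM under the WT label and at 23.81, 19.32 and 17.45 FPKM under the KO label. As with Cd68, the KO-labelled home cage pair stood above all other 8 libraries. Csf1, the other ligand of Csf1r, was at 1.66 and 1.57 against 3.18 and 5.69 FPKM (log2 difference 1.02, adjusted p 0.0291), and at 1.05 to 2.0 FPKM in all 6 exploration libraries. Within the KO-labelled mice both ligands fell after exploration, by 0.70 on the log2 scale for Il34 (limma adjusted p 0.00234) and by 1.00 for Csf1 (adjusted p 0.00465), while Csf1r itself did not pass (log2 difference -0.08). The call for Csf1 was lost there without KO-HC2. For Il34 the difference between the labels in the exploration difference passed (log2 -0.80 ± 0.16 SE, limma adjusted p 0.0496), a call lost in 12 of 18 alternatives, those without any 1 of the same 8 libraries as for Cd68 included. For Csf1 it did not pass (adjusted p 0.12).

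Tgfb2, a growth factor of the family that maintains the microglial programme, was at 3.17 and 3.32 against 7.73 and 14.21 FPKM in the home cage (log2 difference 1.44, limma adjusted p 0.0217). Apoe, an apolipoprotein that Trem2 binds, was at 200.51 and 205.1 against 294.48 and 321.07 FPKM (0.60, limma adjusted p 0.0334). Its WT-labelled home cage pair lay below all other 8 libraries, as for most of the 9 markers. The home cage calls of Csf1, Il34, Tgfb2 and Apoe were each lost without WT-HC1, WT-HC2 or KO-HC2, and that of Apoe also without WT-EX1 or KO-EX2. Tyrobp, the adaptor of Trem2, was at 4.34 and 6.76 FPKM in the WT-labelled home cage, 7.39 and 8.05 in the KO-labelled home cage, 10.42, 9.57 and 8.93 after WT-labelled exploration and 12.95, 10.94 and 10.09 FPKM after KO-labelled exploration. All 6 exploration libraries exceeded all 4 home cage libraries, and Tyrobp rose under the WT label (log2 difference 0.72, limma adjusted p 0.0172) and under the KO label (0.49, adjusted p 0.0298), with environment and block not told apart. The WT-labelled call was lost without WT-HC1, WT-EX1 or WT-EX2, and the KO-labelled call without KO-HC1, KO-HC2, KO-EX1 or KO-EX2. Both were lost with no filter, and the KO-labelled one on scaling to the same FPKM sum. Cx3cl1, the ligand of Cx3cr1, was abundant at 365.94 to 536.18 FPKM and was called in none of the 7 comparisons by limma. Spi1, which encodes PU.1, was at 0.47 to 1.2 FPKM and was not called in any of the 7 either. Irf8, a second lineage factor, stayed at 0.31 to 0.59 FPKM, below the filter, and was not tested.

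**Figure D3:**
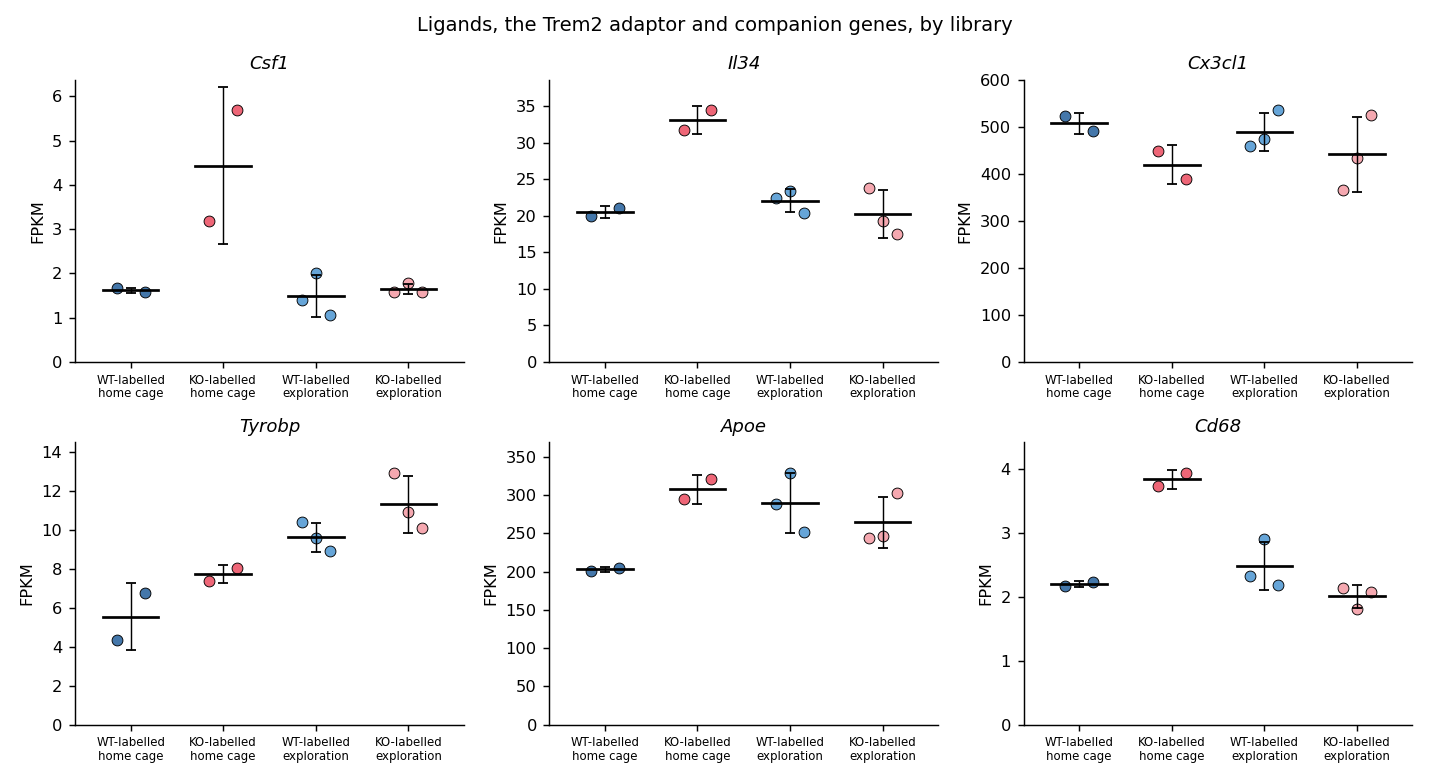
FPKM (y axes, each from 0) of Csf1, Il34, Cx3cl1, Tyrobp, Apoe and Cd68 in each of 10 libraries, by group (x axes); points are libraries, lines are group means and bars are SD. Csf1, Il34 and Cd68 are highest in the KO-labelled home cage pair, whereas Apoe is lowest in the WT-labelled home cage pair.

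Of 29 other complement genes, 8 were tested. Of these, 0 were called by limma in the home cage comparison of the labels, 2 having an unadjusted p under 0.05, as did 18.3% of all tested genes. C3, the central complement protein, was at 0.01 to 0.05 FPKM. Under the WT label, Cfp (properdin) fell by 1.20 on the log2 scale after exploration (limma adjusted p 0.0134) and Csmd1, a complement inhibitor of neurons, fell by 0.58 (adjusted p 0.0172), opposite to the C1q chains. The call for Cfp was lost without WT-HC1 or WT-HC2 and with no filter, and that for Csmd1 without any 1 of the 5 WT-labelled libraries. Under the KO label, where the C1q chains were not called, 3 of the 8 complement genes were called lower, beside 16.6% of all tested genes. Cfp fell by 1.02 (limma adjusted p 0.00949), Csmd1 by 0.85 (adjusted p 0.00163) and C4b, of the classical pathway, by 0.64 (adjusted p 0.0423). C4b was at 1.17 and 3.03 FPKM in the home cage and at 1.01, 0.84 and 0.84 FPKM after exploration. Its call in this KO-labelled comparison was not examined under the alternatives. The call for Cfp was lost there without KO-HC2, and that for Csmd1 held in all 18 alternatives. Averaged over both environments, Cd59a, an inhibitor of the terminal complement complex, was lower under the KO label (log2 difference -0.73, limma adjusted p 0.0279), a call lost without WT-HC1, KO-HC2, WT-EX1, WT-EX3 or KO-EX2 and with no filter. Of 27 genes of the disease-associated microglial state, 19 were tested, and 3 were called higher (Timp2, Csf1 and Apoe) and 1 lower (Lpl) in the KO-labelled home cage libraries, with a median of 0.03. Lpl was at 27.07 and 32.01 against 14.87 and 11.69 FPKM. The call for Lpl was lost in 4 of 18 alternatives (without WT-HC1, WT-HC2 or KO-HC2, and with no filter). That for Timp2 was lost in 8 of 18, 6 of them the removal of 1 library (WT-HC1, KO-HC1, KO-HC2, WT-EX1, WT-EX2 or KO-EX2; limma adjusted p of up to 0.299). Timp2, Apoe and Lpl are also expressed by other brain cells. Clec7a and Itgax, which define that state more closely, were at most 0.13 and 0.01 FPKM. Of 36 inflammatory genes 9 were tested and 1 was called lower in that comparison, Cebpd (log2 difference -0.93, limma adjusted p 0.0265), with a median of 0.003, and 22 of the 36 were at or below 1 FPKM in every library. Cebpd lost its call in the same 4 alternatives as Lpl. Il1b was at 0 to 0.2 FPKM.

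Markers of other cell types were read beside the microglial genes. In the home cage comparison of the labels all 10 tested astrocyte genes had a positive log2 difference and 3 were called higher in the KO-labelled libraries (Gfap, Aldoc and Aqp4), with a median of 0.47. All 10 tested oligodendrocyte genes were positive with a median of 0.36 and 0 called by limma (3 at an unadjusted p under 0.05), and all 8 tested endothelial and mural genes were positive with a median of 0.33 and 1 called, Ly6c1. The calls for Gfap and Aldoc were lost without WT-HC1 or KO-HC2 and with no filter, and that for Aqp4 in 5 of 18 alternatives, including those without WT-HC1, WT-HC2 or KO-HC2. Ly6c1 kept its call in 8 of 18 and lost it without any 1 of the 4 home cage libraries, WT-EX1 or KO-EX2. The summed FPKM of the astrocyte list was 180.0 to 198.0 in the WT-labelled home cage libraries, 274.0 to 318.0 in the KO-labelled ones, and 218.0 to 309.0 over the 6 exploration libraries. The oligodendrocyte sum was 154.0 to 181.0 in the WT-labelled home cage libraries and 210.0 to 397.0 in the other 8. The endothelial and mural sum was 35.7 to 36.5 against 38.6 to 58.8. In summed FPKM these lists were thus also at their lowest in the WT-labelled home cage pair, and their part in the microglial result was not tested. CA1 pyramidal genes summed to 752.0 to 754.0 FPKM in the WT-labelled home cage libraries and to 643.0 to 780.0 in the other 8, a range that contains the WT-labelled pair. As a mean deviation from the 10-library mean in log2(FPKM + 1), this list was at 0.169 and 0.451 in the KO-labelled home cage pair. It was at -0.142 to 0.027 in the remaining libraries. This mean weighs each gene equally and includes Dcn, at 27.24 FPKM in KO-HC2 beside a median of 0.68 FPKM over the 10 libraries. In summed FPKM the KO-labelled home cage pair was at 698.0 to 737.0, below the WT-labelled pair. The deviation without Dcn was not computed.

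The lists for neurons of the hippocampal subfields held differences of both signs. Of 7 CA1 pyramidal genes tested in the home cage comparison, 2 were called higher in the KO-labelled libraries (Dcn and Mpped1) and 1 lower (Wfs1), with a median of 0.21. Dcn, a matrix proteoglycan, was at 0.2 and 0.69 FPKM against 2.82 and 27.24 FPKM, so that KO-HC2 stood far above the rest (log2 difference 2.87, limma adjusted p 0.0391). Wfs1, a membrane protein of the endoplasmic reticulum, was at 218.93 and 192.41 against 127.3 and 64.88 FPKM, lowest in the same library (-1.17, adjusted p 0.0358). All 3 calls were lost without WT-HC1 or KO-HC2, among others. Under the KO label 1 of the 7 was called higher and 5 lower after exploration, with a median of -0.41. Across all tested genes 12% were called higher and 16.6% lower in that comparison. Under the WT label 0 of the 7 were called by limma. Of 7 tested genes that mark CA2, CA3 or the dentate gyrus, 6 were negative in the home cage comparison of the labels, with a median of -0.95. By limma 0 were called and 4 had an unadjusted p under 0.05. The WT-labelled pair was not alike. The mean deviation from the 10-library mean in log2(FPKM + 1) was 0.656 in WT-HC1 and -0.812 in WT-HC2. In the KO-labelled home cage pair it was -1.055 and -0.826. Pcp4 was at 84.32 FPKM in WT-HC1 and 10.66 FPKM in WT-HC2. After exploration 4 of these 7 genes were called higher under the KO label (Pcp4, Bok, Cpne4 and Amigo2), beside 12% of all tested genes. Their median was 2.22 there, and under the WT label 0 were called by limma (median 0.18). Their summed FPKM was 138.0 to 285.0 in the WT-labelled and 134.0 to 141.0 in the KO-labelled home cage libraries, with 211.0 to 232.0 after WT-labelled and at most 328.0 after KO-labelled exploration. The part of these lists in the microglial result was not tested.

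Other sources were read the same way. The list for macrophages of the brain borders held 10 genes, of which 0 passed the filter and 9 were listed for all libraries. Its summed FPKM was 0.41 to 0.5 in the WT-labelled home cage, 0.55 to 1.4 in the KO-labelled home cage, 0.41 to 0.73 after WT-labelled and 0.28 to 1.38 after KO-labelled exploration. Mrc1, Lyve1 and Cd163, which define those cells, did not exceed 0.13 FPKM, so these defining markers were at or near 0 in all libraries. The higher sums under the KO label in the home cage came mostly from Pf4, at 0 and 0 against 0.19 and 0.88 FPKM, and Stab1, at 0.14 and 0.15 against 0.21 and 0.31 FPKM, whose part was not tested. Blood genes summed to 95.1 to 155.0 FPKM over the 4 home cage libraries and to 160.0 to 308.0 over the 6 exploration libraries. Of 4 blood genes tested, 3 were called higher after exploration under the WT label, beside the 4 microglial calls. In the same comparison 6 of 10 oligodendrocyte genes (median 0.58) and 4 of 10 astrocyte genes (median 0.34) were called higher, with Mobp at 1.02 and Mbp at 0.95 on the log2 scale. Of 8 endothelial and mural genes 0 were called by limma and 3 had an unadjusted p under 0.05 (median 0.25). The part of these lists in the microglial calls was not tested. Choroid plexus genes varied between libraries of the same group, from 18.4 to 237.0 FPKM in the WT-labelled home cage pair. The microglial sums of that pair were 52.9 and 48.7 FPKM, and the part of the choroid plexus genes in the microglial values was not tested.

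**Figure D4:**
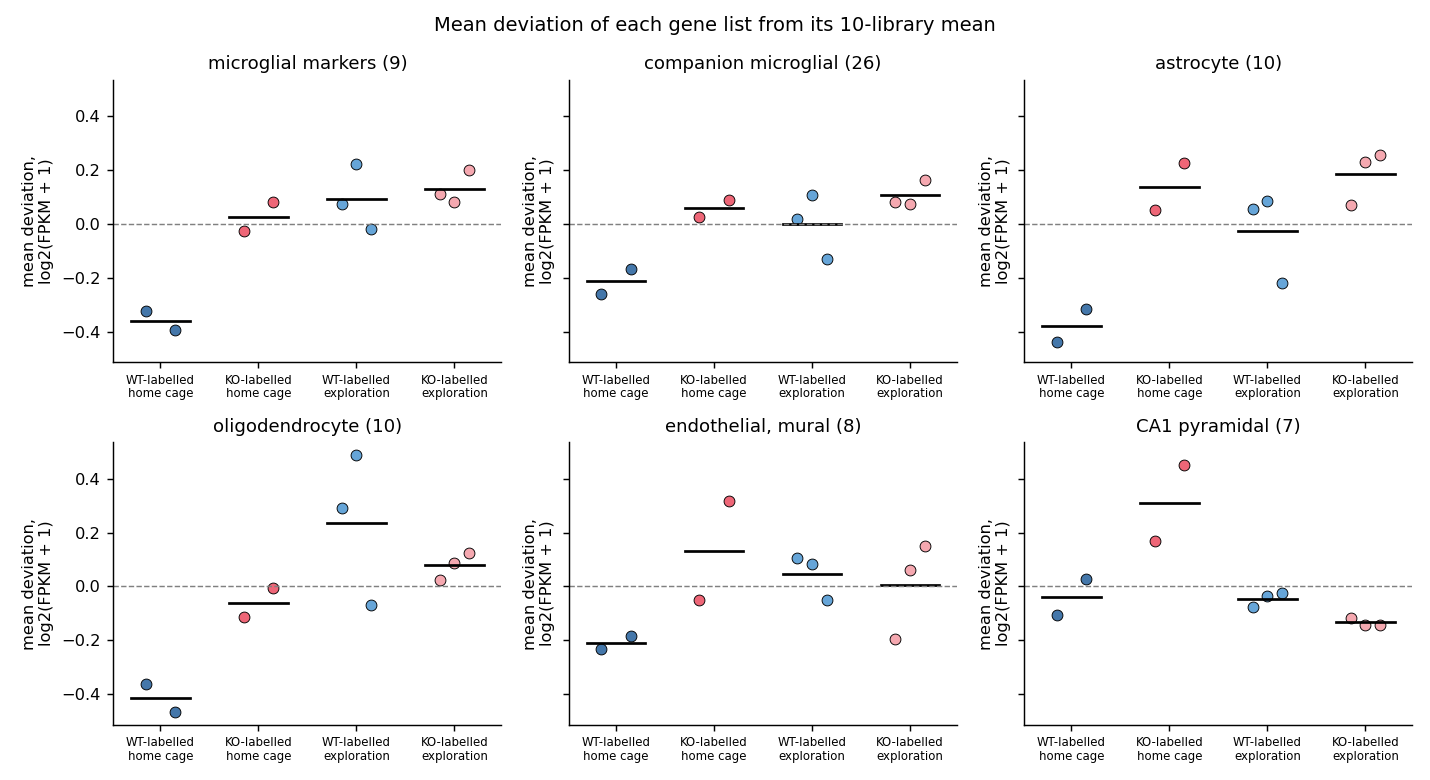
Mean deviation from the 10-library mean in log2(FPKM + 1) (y axes) of 6 gene lists, with the number of genes tested in brackets, in each library by group (x axes); points are libraries and lines are group means. Microglial markers are at -0.322 and -0.396 in the WT-labelled home cage libraries and at -0.028 to 0.221 in the other 8, and the companion, astrocyte and oligodendrocyte lists are also lowest in that pair. The CA1 pyramidal list includes Dcn, at 27.24 FPKM in KO-HC2 beside a 10-library median of 0.68 FPKM.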

How the data were processed

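FPKM values per gene and library were used as the authors deposited them; the submitters' processing notes name HISAT, StringTie, GATK, Bowtie2 and RSEM and the builds GRCm38 and mm10, with no versions or roles. The use of strand, and whether both blocks of columns were normalized together, are not given in the sources used here, so overlapping and antisense genes are uncertain. The blocks, with 19156 exploration and 18257 home cage genes, were joined on the gene ID. The labels list 16 samples, and 6 of the learning condition were not analysed here. Fragments were estimated from the spacing of low FPKM values and GENCODE transcript lengths, and cover counting error only.

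Tests used limma 3.58.1 in R 4.3.3 on log2(FPKM + 1), which understates changes of low genes, with 1 mean per group over 10 libraries, a variance trend, and 6 residual and 5.71 prior degrees of freedom. P-values were Benjamini-Hochberg adjusted over 11892 genes in each of 7 comparisons, with a threshold of 0.05. The fit was tested on simulated data. The alternatives used a 0.1 pseudocount, no filter, a 5 FPKM filter, size factors by median of ratios, the same FPKM sum, scaling to the companion genes, no trend, only the groups compared, and leaving out each library. Those for genes outside the 9 were chosen after seeing the data.

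The members and gene lists were chosen with earlier results of these data known. Named genes were the 9 members, Neil3, Spi1, Irf8, Csf1, Il34, Cx3cl1, Tyrobp, up to 4 called genes per list and comparison, and the 5 most and 3 least alike in profile, of which 1 is not reported here. C3, Clec7a, Itgax, Il1b, Mrc1, Lyve1, Cd163, Pf4 and Stab1 were named outside that rule, after their values were seen. Some genes are on more than 1 list. Python 3 with pandas and numpy was used for descriptions.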

Additional observations from a re-analysis of the deposited data

Results flagged for a closer look

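The difference between the labels in the exploration difference passed the limma test for 3 genes of the lists read here, and for 0 of the 9 microglial markers. For Cd68 it was -0.80 on the log2 scale (-0.803, adjusted p 0.0496), for Il34 -0.80 (-0.797, adjusted p 0.0496), and for Bok, a gene of the list for CA2, CA3 and dentate neurons, 1.84 (1.836, adjusted p 0.0496). The test was of the difference itself. Bok was at 15.59 and 6.44 FPKM in the WT-labelled and 4.53 and 4.99 FPKM in the KO-labelled home cage, at 19.76, 12.88 and 13.98 FPKM after WT-labelled exploration and at 28.35, 26.82 and 32.43 FPKM after KO-labelled exploration. Cd68 kept this call in 5 of 17 alternatives (adjusted p 0.0325 to 0.227), Il34 in 6 of 18 (0.0107 to 0.227) and Bok in 7 of 18 (0.00876 to 0.223). Each was lost without WT-HC1, KO-HC2, WT-EX1, WT-EX2, WT-EX3, KO-EX2 or KO-EX3; Cd68 and Il34 were also lost without WT-HC2, and Bok without KO-HC1.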

How the results depend on the processing

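Groups of 2 and 3 libraries limit all calls, and depth limits Aif1 and Trem2 most. No value changed sign among the called genes for which alternatives were run. With no filter, 0 of the 9 genes were called in the home cage comparison of the labels and 0 in WT-labelled exploration, the number of genes tested being larger. Scaling to the companion microglial genes gave 0 and 0 there and 2 in averaged exploration, with member medians of 0.154 (home cage labels), -0.079 (labels after exploration), 0.044 (averaged labels), 0.288 (WT-labelled exploration), 0.166 (averaged exploration) and -0.2 (difference between labels); it moved the median of all genes to -0.289 in the home cage and -0.232 in WT-labelled exploration. The same FPKM sum, which moved the median of all genes to -0.109 in WT-labelled exploration, gave 2 calls there and 2 in averaged exploration (median 0.192), and a median of -0.029 in KO-labelled exploration. The 5 FPKM filter, which left 5 members, gave 2 calls in averaged exploration and a median of -0.071 in KO-labelled exploration. Size factors gave 1 call for averaged labels and 1 in KO-labelled exploration, where no variance trend also gave 1; only the groups compared gave 1 in the home cage. The cause of these changes was not tested. Leaving out each library gave 0 to 2 calls for the home cage labels, 0 to 1 for averaged labels, 0 to 4 for WT-labelled exploration (median 0.376 to 0.532), 0 to 1 for KO-labelled exploration and 3 to 5 for averaged exploration; a group left with 1 library was assumed to vary like the others. The counts for labels after exploration and for the difference between labels were 0 under every alternative. No paired analysis was possible because the library numbers do not tie animals across groups.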
